A study of Homo sapiens with 6 samples.

Results

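The genes described here are those of the interferon system: the interferon receptors, the STAT and IRF transcription factors below them, and the genes that interferon induces. They were chosen by gene symbol from a list of 44, and 43 of these had a probe set named in the array's annotation, 1 probe set each, out of 17687 named genes and 21448 probe sets in all. STAT2 is the member without a named probe set and is not analysed here, so the description holds IRF factors and no STAT member. The cells were HS578T, an established human breast carcinoma line of mesenchymal character. The control group carried the vector pcDNA 3 alone, and the EP300 group carried pcDNA 3 with the cloned EP300 cDNA, which encodes an acetyltransferase that co-activates transcription. Cells of both groups were kept in low-glucose DMEM with fetal calf serum, glutamine, insulin and the selection drug G418, and the labels name no interferon treatment. Each group was a pool of stable clones, and 3 cultures of each were hybridised, each to an Affymetrix array. Whether the cultures of a group came from separate transfections is not given in the sources used here, so the errors cover the spread between cultures.

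Interferons are secreted proteins with which cells answer virus infection. Type I interferons bind the receptor pair IFNAR1 and IFNAR2, and interferon gamma binds IFNGR1 and IFNGR2. Receptor-bound JAK kinases phosphorylate STAT proteins. After type I interferon these join IRF9 and bind the interferon-stimulated response element, and after interferon gamma STAT dimers bind the gamma-activated sequence. EP300 and its paralog CREBBP are known co-activators of STAT and IRF factors. Many induced genes block a step of virus growth, and in carcinoma cells some of them stay on without added interferon.

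Many of the members with a promoter in the table hold a sequence feature that their choice did not use. Promoters of RefSeq (GRCh38.p14), which run from 250 bases before to 50 bases after a start, were found for 32 of the 43 members. In these, the core of the response element, GAAA and GAAA with any 2 bases between them, read on both strands, was found in at least 1 window of 22 member genes (68.8%), against 1195 of 27305 genes in the table (4.38%). Counted by window, it was in 26 of 44 member windows (59.1%) and 3.57% of all windows of the same length. The palindrome TTCNNNGAA of the gamma-activated sequence was found for 10 of the 32 members (31.2%) and for 9.38% of all genes (7.66% of all windows). The motifs can overlap, as they do for BST2. A match describes the letters of the window and does not show that a factor binds there. Only exact matches inside these windows were read, so a missing match does not show that a gene lacks the element.

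Stretches upstream of a start are printed 5′ to 3′ on the gene's strand, with a matched motif in capitals. Further matches in the BST2, IFITM3, IFI27 and ISG15 stretches, some overlapping the capitals, are not marked. The BST2, IFIT5 and IRF9 stretches belong to the 3 members at an unadjusted p below 0.05, those of IFITM1, IFITM3, IFI27 and ISG15 to induced genes read above the array median, and that of IRF1 to an IRF gene with the gamma-activated motif. BST2 (chr19:17405725-17405774, minus strand) and IFIT5 (chr10:89414503-89414552, plus strand) hold the response element core, IFIT5 in the reverse direction. The stretch of IFITM3 is at chr11:320866-320915 (minus), IFITM1 at chr11:313980-314029 (plus), IFI27 at chr14:94110621-94110670 (plus) and ISG15 at chr1:1013370-1013419 (plus). IRF9 (chr14:24161182-24161230, plus) and IRF1 (chr5:132490869-132490917, minus) hold the gamma-activated motif, and in their windows the response element core was not found.
BST2: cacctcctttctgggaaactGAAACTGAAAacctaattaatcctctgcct
IFIT5: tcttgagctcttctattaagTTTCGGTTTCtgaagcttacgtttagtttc
IFITM3: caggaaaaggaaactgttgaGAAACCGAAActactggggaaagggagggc
IFITM1: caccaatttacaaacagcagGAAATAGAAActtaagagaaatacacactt
IFI27: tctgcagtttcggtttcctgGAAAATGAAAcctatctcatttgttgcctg
ISG15: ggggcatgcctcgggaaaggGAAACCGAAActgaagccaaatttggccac
IRF9: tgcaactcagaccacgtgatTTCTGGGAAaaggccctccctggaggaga
IRF1: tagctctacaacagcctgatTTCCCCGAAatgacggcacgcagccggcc

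All levels below are the deposited values, taken as log2, and a difference is the mean of the EP300 arrays minus that of the control arrays. The 6 array medians lay close to each other, with a median of 4.48, and the lower quartiles had a median of 3.48. A member with a mean under 4.48 is called low and one under 3.48 very low, because the table gives no detection calls and the background is unknown. By this rule 21 of the 43 members were above the array median and 22 were below it, 13 of them very low. Cell identity markers read as the label says: 6 of 6 mesenchymal markers lay between 10.1 and 18.6, and 4 of 5 epithelial or hormone receptor markers lay below the array median, with ESR1 above it at 4.79. The 18.6 is VIM, whose probe set had the same value on all 6 arrays and so gives no spread between cultures. Of 10 leukocyte markers 8 were measured, 5 of them below the array median, with the defining marker PTPRC at 3.79, and 3 above it (CD3E at 4.67, CSF1R at 5.12 and NCAM1 at 9.02). Their summed level was 38.0 to 38.6 in control and 36.5 to 37.2 in EP300 cultures, with NCAM1 differing by -0.96 (limma adjusted p = 0.689), and the part of these markers in the members' values was not tested. The level of EP300 itself is not analysed here, since no named probe set carries that symbol.

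Across the interferon system no member passed the test. By limma, with Benjamini-Hochberg adjustment over all probe sets, 0 of 43 members had an adjusted p below 0.05, and the lowest was 0.735; over all probe sets the count was 0 of 21448 (0%), with 1399 at an unadjusted p below 0.05. With a variance trend and robust estimation 4 probe sets passed, and 0 of them were members. At an unadjusted p below 0.05 limma counted 1 member higher in EP300 cultures (IFIT5), against 3.45% of all probe sets, and 2 lower (IRF9 and BST2), against 3.07%. Together these 3 are 6.98% of the members, close to the 6.52% of all probe sets. Without control replicate 3 the count of members was 6, with IFITM2, IFITM3, MX2 and OAS2 in it and IFIT5 not. The share of all probe sets was not computed without that array, so this count cannot be compared with one. The groups did not overlap for 5 members (IRF9, BST2, IFIT5, IFNGR1 and MX1; 11.6%), against 12.2% of all probe sets. No member differed by more than 1 on the log2 scale, and the 95% interval of a member's difference reached a median of 0.60 to either side. In bulk cultures fewer cells that make a transcript and less of it in each cell cannot be told apart.

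**Figure D1:**
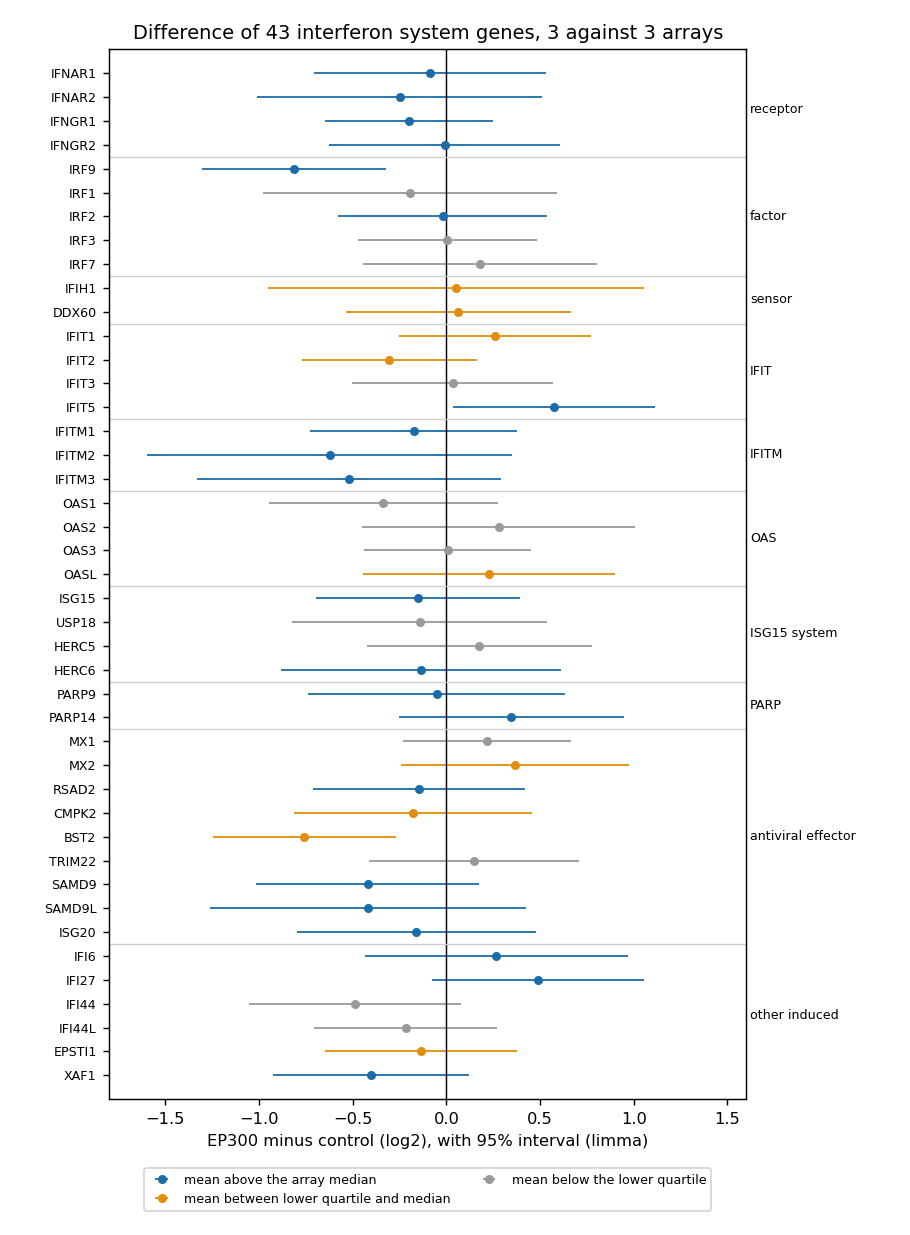
Difference between EP300 and control arrays (log2, x axis) for each of the 43 genes in order of role (y axis), with limma's 95% interval over 3 against 3 arrays; colour gives the gene's level class. The intervals of IRF9 and BST2 lie below 0, that of IFIT5 lies above it, and the other 40 include 0.

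The balance of the members leaned to lower values. In EP300 cultures 26 members were lower and 17 higher, with a median difference of -0.13, while the median over all probe sets was 0.000982. Among the 21 members above the array median 17 were lower and 4 higher (median -0.15), where all probe sets above it split into 5448 higher and 5076 lower. Among the 22 members below it 9 were lower and 13 higher (median 0.02). The lean rested on few arrays: the median was 0.00394 without EP300 replicate 2, -0.0375 without control replicate 1 and -0.0439 without control replicate 3. On control replicate 1 the members stood 0.14 above their own means on average, and 13 of 43 had their highest value there. On EP300 replicate 2 they stood 0.12 below, and 12 had their lowest value there. Over all probe sets these mean deviations were -0.00047 and 0.0021.

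**Figure D2:**
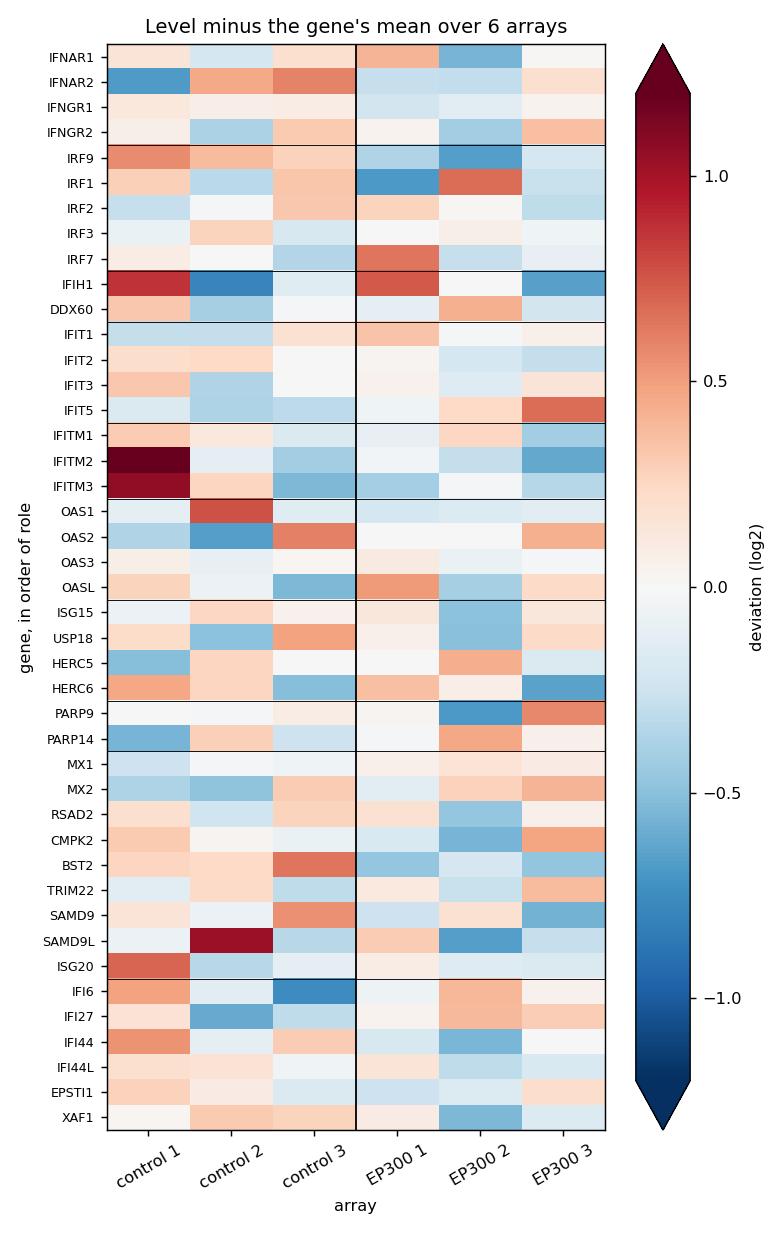
Level of each gene (rows, in order of role) on each of the 6 arrays (columns) minus its mean over the 6 arrays, on the log2 scale from blue (lower) to red (higher), with the colours capped at 1.2. IFITM2 and IFITM3 stand out as high on control replicate 1, where each lies over 1 above its mean.

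The 4 receptor chains were all read above the array median, and none passed the test. IFNAR1, a chain of the type I receptor, read 8.07, 7.71 and 8.11 on the control arrays and 8.33, 7.37 and 7.93 on the EP300 arrays. Its partner IFNAR2 read 6.14, 7.28 and 7.42 on the control arrays and 6.55, 6.53 and 7.02 on the EP300 arrays. The ranges of the groups overlapped for both chains, with differences of -0.09 (95% interval -0.71 to 0.53) and -0.25 (-1.01 to 0.51). The IFNAR2 value was -0.65 without control replicate 1, its lowest array, and -0.01 without control replicate 3. IFNGR1, the ligand-binding chain of the gamma receptor, read 7.42, 7.37 and 7.38 on the control arrays and 7.07, 7.17 and 7.34 on the EP300 arrays. Its 3 control arrays lay just above the 3 EP300 arrays, with a difference of -0.20 ± 0.20 SE (limma adjusted p = 0.904, exact two-sided permutation p = 0.1, the smallest that 3 against 3 allows). IFNGR2, the signalling chain, read 10.10, 9.65 and 10.34 on the control arrays and 10.06, 9.61 and 10.39 on the EP300 arrays, and its groups overlapped fully (difference -0.01, interval -0.63 to 0.61). IFNAR1, IFNAR2 and IFNGR2 lie on chromosome 21. EP300 replicate 2 held the lowest value of IFNAR1 and of IFNGR2.

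Among the transcription factors IRF9 was the member with the smallest p. IRF9, the DNA-binding partner of the STAT proteins after type I interferon, read 5.41, 5.23 and 5.12 on the control arrays and 4.48, 4.19 and 4.65 on the EP300 arrays. Every EP300 array lay below every control array. The means were 5.25 ± 0.15 and 4.44 ± 0.23 (SD, n = 3 each), a 1.76-fold lower level in EP300 cultures, where the mean was just under the array median. The difference of -0.81 ± 0.22 SE spanned -1.30 to -0.32 at 95%. It did not pass (limma adjusted p = 0.735, with 0.573 to 0.866 under other settings). It stayed between -0.92 and -0.69 when any 1 array was left out.

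The groups of the other 4 IRF members overlapped. IRF2, which can act as a repressor at the same elements, read 5.09, 5.36 and 5.70 on the control arrays and 5.64, 5.38 and 5.06 on the EP300 arrays. The difference was -0.02 (interval -0.58 to 0.53). IRF1, an activator that interferon gamma induces, was very low on average, at 3.72, 3.11 and 3.78 on the control arrays and 2.75, 4.11 and 3.17 on the EP300 arrays. Its lowest and its highest value both came from EP300 arrays. IRF3, which is activated by virus sensors without new synthesis, read 2.99, 3.33 and 2.87 on the control arrays and 3.06, 3.13 and 3.02 on the EP300 arrays. IRF7, the factor that amplifies interferon production, read 3.33, 3.23 and 2.88 on the control arrays and 3.87, 2.96 and 3.14 on the EP300 arrays. Both were very low, with differences of 0.01 and 0.18. Such levels limit what the IRF1, IRF3 and IRF7 values show.

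The 2 members grouped as sensors, IFIH1 and DDX60, were low in both groups. Outside the members, RIGI and CGAS were above the array median (means over the 6 arrays of 5.03 and 5.20), and TLR3 was below it (3.79). IFIH1, a helicase that senses long double-stranded RNA, ranged from 2.84 to 4.50 on the control arrays and from 2.98 to 4.36 on the EP300 arrays (difference 0.05). DDX60, a member of the helicase family, differed by 0.06. Both ranges overlapped.

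Among the IFIT genes, which encode proteins that bind foreign RNA and lie together on chromosome 10, IFIT5 was the 1 member above the array median. IFIT5 read 6.19, 5.99 and 6.05 on the control arrays and 6.31, 6.61 and 7.04 on the EP300 arrays. All 3 EP300 arrays lay above the 3 control arrays, with EP300 replicate 3 the furthest. The means were 6.08 ± 0.10 and 6.65 ± 0.37, a 1.49-fold higher level. The difference of 0.57 ± 0.24 SE (95% interval 0.04 to 1.11) did not pass (limma adjusted p = 0.757, 0.604 to 0.884 over the alternatives), and it was 0.38 without EP300 replicate 3. Its neighbours IFIT1 and IFIT2 were low and IFIT3 was very low, with differences of 0.26, -0.31 and 0.03, and their groups overlapped.

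The IFITM genes, which encode membrane proteins that hinder virus entry and lie together on chromosome 11, had differences that depended on single arrays. IFITM3 read 15.07, 14.26 and 13.47 on the control arrays and 13.59, 13.98 and 13.66 on the EP300 arrays. IFITM2 read 8.67, 7.09 and 6.79 on the control arrays and 7.17, 6.92 and 6.59 on the EP300 arrays. IFITM1 read 7.78, 7.60 and 7.30 on the control arrays and 7.37, 7.72 and 7.05 on the EP300 arrays. For each of the 3 genes control replicate 1 was the highest of all 6 arrays, and for IFITM1 and IFITM2 the other control arrays lay inside the EP300 range. For IFITM3 these lay above and below it. The differences were -0.52 ± 0.36 SE for IFITM3, -0.62 ± 0.43 SE for IFITM2 and -0.17 ± 0.25 SE for IFITM1 (limma adjusted p = 0.857, 0.857 and 0.927). Without control replicate 1 the differences were -0.12 for IFITM3 and -0.05 for IFITM2, and without control replicate 3 they were -0.92 and -0.98. The transcripts are close in sequence, so 1 transcript may add to the signal of several probe sets, and the genes are not separate observations.

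**Figure D3:**
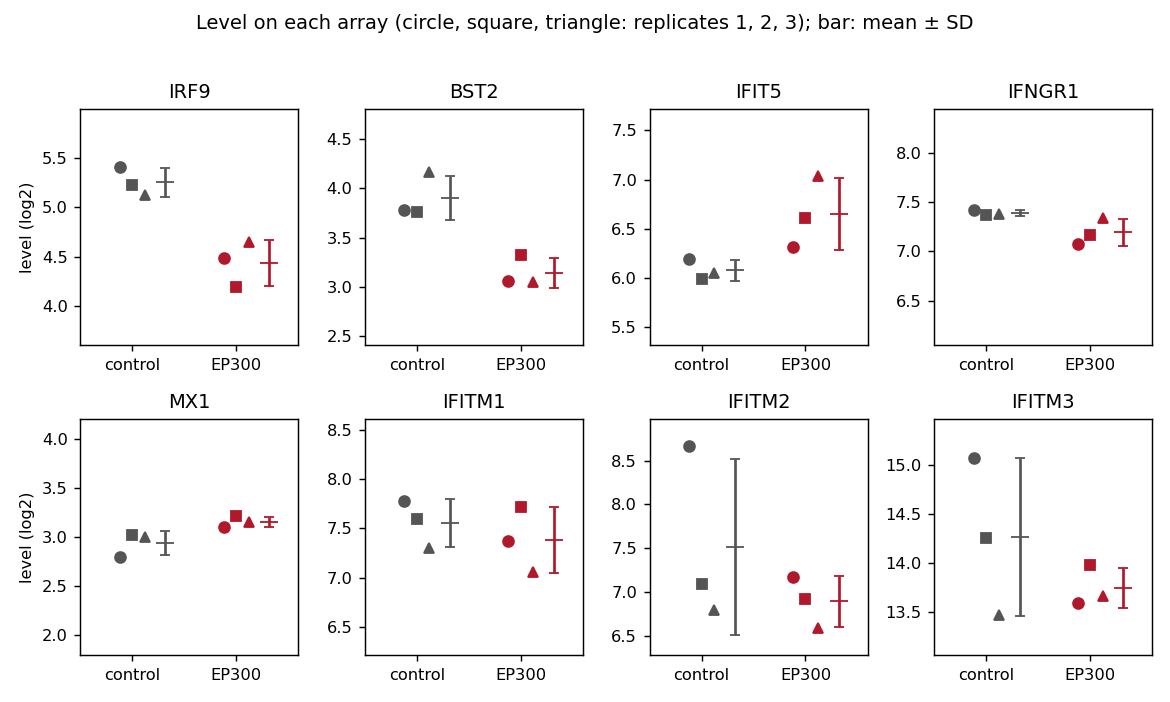
Level (log2, y axis, each panel on its own range) on each array of the 5 members whose groups do not overlap and of the 3 IFITM genes; circles, squares and triangles are replicates 1, 2 and 3, and the bar beside them is the mean ± SD of 3 arrays. IRF9 and BST2 lie lower and IFIT5 higher on all EP300 arrays, while control replicate 1 lies above the other arrays for IFITM2 and IFITM3.

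The OAS genes, whose products make the oligoadenylates that switch on a ribonuclease, were all below the array median. OAS1, OAS2 and OAS3, on chromosome 12, were very low, with differences of -0.34, 0.28 and 0.01, and OASL, a relative that acts with an RNA sensor, was low with 0.23. The groups overlapped for all 4, and the values depended on single arrays. Without control replicate 2 the OAS1 difference was -0.04 and that of OAS2 0.02. Without control replicate 3 that of OAS2 was 0.65 and that of OASL 0.01. OAS3 changed sign without control replicate 2 or EP300 replicate 1. The 95% intervals ran from -0.95 to 0.28 for OAS1 and from -0.44 to 0.90 for OASL.

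The 4 members of the ISG15 system overlapped between the groups. ISG15, a ubiquitin-like protein that is attached to others, sat near the array median at 4.43, 4.75 and 4.55 on the control arrays and 4.64, 4.01 and 4.64 on the EP300 arrays. HERC6, a relative of the human ISG15 ligase, read 5.15, 4.95 and 4.18 on the control arrays and 5.05, 4.78 and 4.05 on the EP300 arrays. HERC6 spread over a similar range in both groups, while ISG15 had its lowest value on EP300 replicate 2 and a wider range among the EP300 arrays. The differences were -0.15 for ISG15 and -0.13 for HERC6. The ligase HERC5 (0.18) and USP18, the protease that removes ISG15 and dampens the receptor (-0.14), were very low, and their groups overlapped.

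The ADP-ribosyltransferase family genes PARP9 and PARP14 lie on chromosome 3 and were above the array median. PARP9 read 5.95, 5.94 and 6.04 on the control arrays and 5.98, 5.26 and 6.52 on the EP300 arrays, with the lowest and the highest value both among the EP300 arrays. PARP14 read 5.32, 6.16 and 5.62 on the control arrays and 5.86, 6.34 and 5.94 on the EP300 arrays, and its ranges overlapped. The differences were -0.05 (interval -0.74 to 0.63) and 0.35 (-0.26 to 0.95).

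Of the antiviral effectors, BST2 stood apart between the groups. BST2, the tetherin that holds budding virus at the cell surface, read 3.78, 3.76 and 4.16 on the control arrays and 3.06, 3.32 and 3.05 on the EP300 arrays. All EP300 arrays lay below all control arrays. The difference of -0.76 ± 0.22 SE (95% interval -1.25 to -0.27) did not pass (limma adjusted p = 0.735, 0.625 to 0.866 over the alternatives), and it stayed between -0.85 and -0.63 when 1 array was left out. The 3 control arrays averaged 3.90 ± 0.23 and the 3 EP300 arrays 3.14 ± 0.15 (SD). The EP300 mean is very low, and no fold is stated for it.

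MX1, a dynamin-like inhibitor of virus nucleocapsids, also did not overlap, at a very low level: it read 2.79, 3.02 and 2.99 on the control arrays and 3.11, 3.21 and 3.15 on the EP300 arrays. The difference was close in size to its error (0.22 ± 0.20 SE, limma adjusted p = 0.895). Its relative MX2 was low, with a difference of 0.37 and overlapping ranges. SAMD9 and SAMD9L, neighbouring growth and virus restriction genes on chromosome 7, were above the array median. SAMD9 read 7.90, 7.68 and 8.30 on the control arrays and 7.50, 7.93 and 7.19 on the EP300 arrays. SAMD9L read 5.92, 7.02 and 5.66 on the control arrays and 6.30, 5.33 and 5.72 on the EP300 arrays. Both overlapped between the groups and differed by -0.42 ± 0.27 SE and -0.42 ± 0.38 SE, and the SAMD9L value was -0.01 without control replicate 2. RSAD2, the enzyme viperin that makes a chain-terminating nucleotide, read 4.74, 4.31 and 4.82 on the control arrays and 4.74, 4.09 and 4.61 on the EP300 arrays. ISG20, an exonuclease, read 5.49, 4.47 and 4.68 on the control arrays and 4.89, 4.64 and 4.62 on the EP300 arrays, with control replicate 1 the highest. These differed by -0.15 and -0.16, and for both the groups overlapped. CMPK2, a nucleotide kinase next to RSAD2, was low (-0.18), and TRIM22, a ubiquitin ligase family member, was very low (0.15).

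Of the remaining induced genes IFI6, IFI27 and XAF1 were above the array median. IFI6, a mitochondrial survival protein, read 8.64, 8.02 and 7.40 on the control arrays and 8.09, 8.55 and 8.20 on the EP300 arrays, and the control arrays spanned the EP300 range. IFI27, a membrane protein of mitochondria, read 5.60, 4.82 and 5.13 on the control arrays and 5.47, 5.82 and 5.72 on the EP300 arrays, with 1 control array inside the EP300 range (difference 0.49 ± 0.25 SE, limma adjusted p = 0.792). XAF1, a pro-apoptotic binder of XIAP, read 5.61, 5.90 and 5.85 on the control arrays and 5.69, 5.05 and 5.42 on the EP300 arrays, with a difference of -0.40 ± 0.23 SE (limma adjusted p = 0.82). IFI6 differed by 0.27, and this was -0.04 without control replicate 3 and 0.58 without control replicate 1. IFI44 and IFI44L, neighbours on chromosome 1, were very low (-0.49 and -0.22), and EPSTI1 was low (-0.14). The groups of these 3 overlapped.

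The split of directions differed in count between members with and without the response element core. Of the 22 members with the core in a promoter window 11 were higher and 11 lower, with a median of -0.02 and a span from -0.76 (BST2) to 0.57 (IFIT5). Of the 10 without it 0 were higher and 10 lower, with a median of -0.20. These 10 were CMPK2, HERC6, the receptor genes IFNAR1, IFNGR1 and IFNGR2, IRF1, IRF9, OAS1, SAMD9L and XAF1. The split depended on single arrays: without EP300 replicate 2, IFNAR1, IFNGR2 and CMPK2 were higher, which made it 3 higher and 7 lower, and without control replicate 1 it was 2 higher and 8 lower. For the 22 with the core the counts ran from 7 higher and 15 lower (without control replicate 2) to 13 higher and 9 lower (without EP300 replicate 2). This split was seen after the values were known and was not tested, and apart from IRF9 each of the 10 had a 95% interval that included 0. The motif groups also differed in level: 11 of the 22 with the core were below the array median, against 3 of the 10 without it. Among all members 17 of 21 above the array median were lower, against 9 of 22 below it. All 4 receptor members were lower. These counts also depended on an array: without EP300 replicate 2, IFNAR1, IFNGR2, ISG15, PARP9 and RSAD2, all above the array median, were higher. The part of level and role in the split was not tested. Members with the gamma-activated motif had 4 higher and 6 lower of 10 (median -0.16), and those without it 7 higher and 15 lower of 22 (median -0.14). Promoters were not in the table for IFIT2, IFITM2, IFNAR2, IRF2, IRF3, IRF7, MX2, OAS2, OASL, TRIM22 and USP18.

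**Figure D4:**
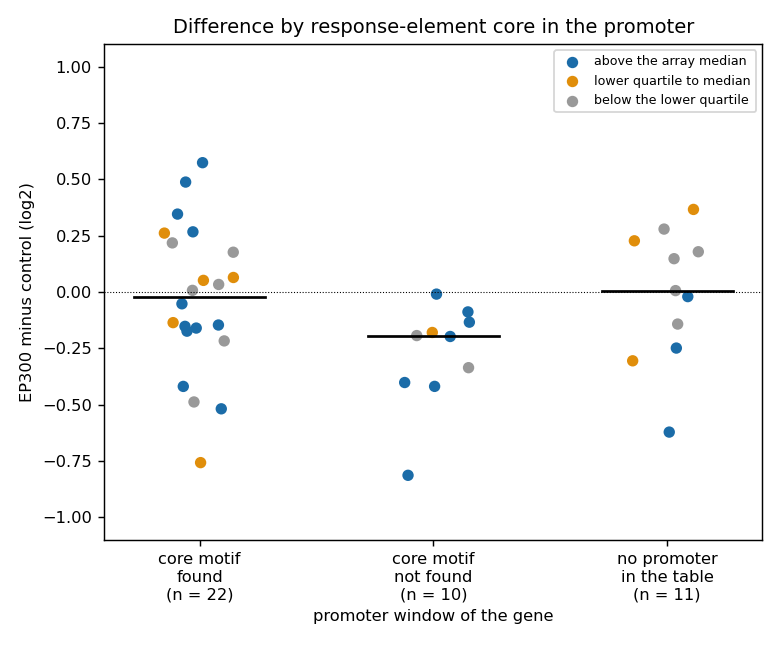
Difference between EP300 and control arrays (log2, y axis) for the 43 members, split by whether a RefSeq promoter window of the gene holds the response element core (x axis); points are genes coloured by level class, jittered sideways, and the line is the median. The 22 members with the core lie on both sides of 0, and the 10 without it lie below 0, IFNGR2 only just (-0.01). Without EP300 replicate 2, which is not drawn, 3 of these 10 were higher.

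Other genes of the pathway were taken from a list of 93, of which 85 had a probe set. By limma 0 of them had an adjusted p below 0.05, and at an unadjusted p below 0.05 there were 3 higher and 3 lower (7.06% together, against 6.52% of all probe sets). Of the 85 genes 38 were higher and 47 lower (median -0.05), and the groups did not overlap for 12 (14.1%, against 12.2% of all probe sets). EIF2AK2, the kinase PKR that stops translation on double-stranded RNA, read 9.91, 9.84 and 9.74 on the control arrays and 10.39, 10.46 and 10.45 on the EP300 arrays. Its groups were separate with little spread, and the difference was 0.60 ± 0.20 SE (limma adjusted p = 0.738). NMI, a protein that binds STAT and MYC proteins, read 4.74, 4.67 and 4.11 on the control arrays and 4.97, 5.72 and 5.62 on the EP300 arrays, with all EP300 arrays above the control arrays (0.93 ± 0.28 SE, limma adjusted p = 0.735). TLR3, a receptor for double-stranded RNA, was low and read 3.35, 3.46 and 3.71 on the control arrays and 4.40, 3.96 and 3.84 on the EP300 arrays (0.56). On the lower side UBE2L6, the conjugating enzyme of ISG15, read 8.03, 7.71 and 7.88 on the control arrays and 7.28, 7.63 and 6.85 on the EP300 arrays, with all EP300 arrays below the control arrays (-0.62 ± 0.25 SE, limma adjusted p = 0.748). SHFL, an inhibitor of ribosomal frameshifting in viruses, was low and read 4.92, 4.06 and 3.76 on the control arrays and 3.31, 3.53 and 3.67 on the EP300 arrays. Its EP300 arrays lay below the control arrays, of which replicate 1 was the highest. The difference was -0.74 ± 0.30 SE (limma adjusted p = 0.748), or -0.41 without control replicate 1.

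The interferons themselves were mostly below the array median. Of 9 interferon genes of that list 8 were below the array median and 7 of these were very low, with 4 higher and 5 lower in EP300 cultures. IFNB1, which encodes interferon beta, read 3.73, 3.02 and 3.37 on the control arrays and 2.46, 3.07 and 2.74 on the EP300 arrays. The groups overlapped, and the difference of -0.62 ± 0.26 SE did not pass (limma adjusted p = 0.758). At such levels, with the background unknown, these values do not show whether the cells made interferon.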

How the data were processed

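Transcript levels were measured on 6 Affymetrix whole-transcript arrays of HS578T cells, 3 with the EP300 vector and 3 with the empty vector. RNA was isolated with Qiagen RNeasy columns and labelled with the GeneChip WT PLUS kit, per the labels' protocols. The authors' deposited table holds 1 value per probe set and array, from 1.79 to 19.9, taken as log2 from its range, since no label states the scale. Partek 6.6 was used, per the submitters' processing notes. The sources used here name no background correction, normalization or build. Probe sets were named from the platform annotation (1 symbol for 17709, none for 3739), and of several probe sets for a gene the one highest on average was taken. EP300 minus control was tested in R 4.3.3 with limma 3.58.1 (lmFit, eBayes) over all 21448 probe sets, with no filter or covariate, Benjamini-Hochberg adjustment and a threshold of 0.05. The fit was tested on simulated data, with variances drawn from the fit's own model and added shifts larger than any member's difference. That test does not show how well differences of the size seen here are found. Array values are given for each IRF and receptor member, every member above the array median and every member whose groups do not overlap, and of the pathway list for genes at an unadjusted p below 0.05. The members and lists were chosen with earlier results of these data known. Alternatives were quantile normalization, median centring, a filter at the median level, a variance trend with robust estimation, averaged probe sets, no constant probe sets, array weights, the replicate block and leaving out each array.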

Additional observations from a re-analysis of the deposited data

How the results depend on the processing

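The number of arrays limits the precision, and for the 22 low members the unknown background limits it further. Under all 14 alternative settings 0 members and 0 pathway genes passed, with the lowest adjusted p of a member between 0.573 and 0.866 (limma). The count of members at an unadjusted p below 0.05 ran from 2 to 6 when 1 array was left out. The share of all probe sets was not computed for these settings, so the counts do not show a concentration among the members. The 6 came without control replicate 3, and were IRF9, BST2, IFITM2, IFITM3, MX2 and OAS2. IRF9 was among those counted in all 14 settings, and BST2 in the 13 that tested it. The median difference ran from -0.137 to 0.00394 when 1 array was left out. Of the 43 members 23 kept their sign in every setting and 20 did not, with 34 changes of sign in all. With array weights IFNGR2 was at 0.0258 and IRF3 at -0.0139. The other changes of sign came from leaving out 1 array, over which the differences ran as follows: IFNAR1 -0.316 to 0.166, IFNGR2 -0.200 to 0.196, IRF1 -0.577 to 0.104, IRF2 -0.166 to 0.136, IRF3 -0.0904 to 0.139, IRF7 -0.0970 to 0.362, IFIH1 -0.332 to 0.496, DDX60 -0.135 to 0.239, IFIT3 -0.140 to 0.202, OAS3 -0.0447 to 0.0468, ISG15 -0.258 to 0.0572, USP18 -0.422 to 0.0738, HERC5 -0.0375 to 0.350, HERC6 -0.426 to 0.154, PARP9 -0.352 to 0.278, RSAD2 -0.302 to 0.0473, CMPK2 -0.460 to 0.0526, TRIM22 -0.00346 to 0.319, ISG20 -0.368 to 0.146 and IFI6 -0.0439 to 0.576. The cause of these changes was not tested. Over all probe sets that varied, deviations of same-numbered arrays from their group means correlated at -0.00153, -0.00528 and -0.00893. By this measure the numbers in the labels showed no pairing, which does not show that same-numbered cultures were handled apart. These correlations were not computed for the members alone. With the replicate block 2 members (IRF9 and BST2) had an unadjusted p below 0.05, the median was -0.13 and 0 members passed (lowest limma adjusted p = 0.806). Each member had 1 probe set, so that averaging a gene's probe sets left their values as they were.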

Other observations

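Genes of the signalling chain between receptor and IRF9, named here after their values were seen, read above the array median for the kinase JAK1 and for STAT3, while JAK2 was low. The JAK2 arrays read 4.51, 3.61 and 4.10 in control and 4.62, 4.62 and 4.59 in EP300 cultures, and those of STAT3 7.08, 6.94 and 6.93 against 7.14, 7.56 and 7.36. For both genes the groups did not overlap, and neither passed (differences 0.54 ± 0.26 SE and 0.37 ± 0.21, limma adjusted p = 0.786 and 0.818). The groups also did not overlap for 12.2% of all probe sets and for 12 of the 85 pathway genes (14.1%), JAK2 and STAT3 among them. JAK1 differed by 0.23 and the receptor-bound kinase TYK2 by -0.35, with overlapping groups.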
